A study of Rattus norvegicus with 4 samples.

Results

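The miRNAs described here are those of striated muscle. They were taken as every listed arm of rno-miR-1, rno-miR-133a, rno-miR-133b, rno-miR-206, rno-miR-208a, rno-miR-208b and rno-miR-499. Of the 14 arms so named, 5 had a row among the 243 rat miRNAs of the deposited values: miR-1-3p, miR-133a-3p, miR-133b-3p, miR-206-3p and miR-208a-3p. The other 9 were not analysed here. All names carry the rat prefix, as in rno-miR-1-3p, rno-miR-133a-3p and rno-miR-206-3p, which is left out below except in first values. Small RNA of exosomes (Exos, the small vesicles that cells release into blood) from serum of male Sprague-Dawley rats was sequenced in 4 libraries. By their treatment label, 2 belong to exercise (treadmill training, called Exe libraries below) and 2 to sedentary (Sed libraries). The series text speaks of 20 rats in each group, and how rats were joined into libraries is not given in the sources used here. Where libraries of a group share rats or serum, the p-values below measure only the spread between these libraries, which may be technical.

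Treatment labels may be at odds with the names of the libraries: E begins the names of both Sed libraries and N those of both Exe libraries. Every direction below rests on the treatment label and would turn if the letters held. The values alone cannot settle which is right, but the directions given in the study's own account of these libraries favour the letters, so the treatment labels are likely to be exchanged. The Exe libraries would then be those of sedentary rats and the Sed libraries those of trained rats. Values are RPM, reads scaled to a common library total, and that total was larger than the reads on the listed miRNAs. Each non-zero value was a whole multiple of the smallest value of its library, which was taken as 1 read. On that basis the totals ran from 20780612 to 22140315 reads, of which 649210 to 814439 fell on listed miRNAs, and a count of 0 allows up to 3 reads, or 0.135 to 0.144 RPM. Intervals and floors cover counting error only, since the reads carry no molecular identifiers.

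miRNAs guide silencing proteins to messenger RNAs, mainly through the seed, the bases near the 5′ end that pair with the target. miR-1 and miR-133a are made together in heart and skeletal muscle and act in the differentiation and the growth of muscle cells. miR-206, a relative of miR-1 with the same seed, is made together with miR-133b in skeletal muscle and promotes differentiation of muscle cells. miR-208a is made in the heart, from within the gene of a cardiac myosin heavy chain. The rat gene table (assembly GRCr8, not the one the reads were aligned to, so without coordinates) lists Mir1 and Mir133a1 inside the span of Mib1, Mir206 next to Mir133b, Mir208a inside Myh6, Mir208b inside Myh7 and Mir499a inside Myh7b.

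The sequences decide which members can be told apart by their reads. They are written 5′ to 3′ with T in place of U, as in the deposited values, with the seed (bases 2 to 8) in capitals. The first set shares 1 seed, which 3 listed miRNAs hold. miR-1b is not a member of the chosen set and is shown because it is the listed sequence nearest to miR-1-3p:
miR-1-3p: tGGAATGTaaagaagtgtgtat
miR-1b: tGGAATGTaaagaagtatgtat
miR-206-3p: tGGAATGTaaggaagtgtgtgg
The second set shares another seed, held by 2 listed miRNAs:
miR-133a-3p: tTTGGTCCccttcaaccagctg
miR-133b-3p: tTTGGTCCccttcaaccagcta
The heart member has a seed that no other listed miRNA holds:
miR-208a-3p: aTAAGACGagcaaaaagc
All of these were identical in the RefSeq miRNA table of GRCr8, which held 5 of the 5 members. Counted from the 5′ end, miR-1-3p and miR-206-3p differ by 3 substitutions, A11G, A21G and T22G. miR-1-3p and miR-1b differ by 1, G17A, and miR-133a-3p and miR-133b-3p by 1 at the last base, G22A. How reads that match both of a near-identical pair were assigned is not given in the sources used here, so the split within the pairs that differ by 1 base is uncertain. miR-206-3p is 3 edits from its nearest listed sequence, miR-1-3p. A21G and T22G lie at the 3′ end, so a read that ends before them differs by A11G alone. The miR-208a-3p entry is 18 nt long, the only one of that length among the 243.

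The members differed widely in level, and rno-miR-1-3p made up most of their reads. It had 10396 and 9624 reads in the Exe libraries and 7210 and 7379 in the Sed libraries. It ranked 12 to 14 among the miRNAs of each library. rno-miR-206-3p had 481 and 328 reads in the Exe libraries and 916 and 1515 in the Sed libraries, with ranks of 65 and 68 against 47 and 39. These were the only members above 0 in all 4 libraries, as were 104 of the 243 listed miRNAs. The remaining members sat near or below the floor in at least 2 libraries each.

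rno-miR-133a-3p, the partner of miR-1 in its transcript, was close to absent from the counts. It had 1 read in sedentary replicate 1 and 0 in the other 3 libraries. miR-1-3p was at least 3465-fold and 3208-fold higher than miR-133a-3p in the Exe libraries and at least 2460-fold higher in sedentary replicate 2, with 3 reads in each library as the floor. In sedentary replicate 1 the ratio was 7210 to 1, with a 95% counting interval (exact) of 1294 to 284819. As the reads were assigned, miR-133a-3p was thus at or under the floor of 3 reads in all 4 libraries, whatever their label. These bounds cover counting error only, and the split of reads between miR-133a-3p and miR-133b-3p is uncertain. Set against miR-133b-3p, miR-1-3p was 281-fold higher in exercise replicate 1 and 160-fold higher in sedentary replicate 1.

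miR-133b-3p, which lies beside miR-206 in the genome, had 37 reads (1.68 RPM) in exercise replicate 1 and 45 (2.04 RPM) in sedentary replicate 1. It had 0 in both libraries numbered 2. miR-208a-3p showed the opposite detection, with 54 reads (2.44 RPM) in exercise replicate 2, 89 (4.28 RPM) in sedentary replicate 2 and 0 in both libraries numbered 1. Neither pattern followed the treatment label. Detection in the libraries of 1 number alone was seen for 2 miRNAs with number 1 and for 5 with number 2, of 243. At least 30 reads beside 0 in the other library of a group was seen for 38 miRNAs under the exercise label and for 58 under the sedentary label.

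**Figure D1:**
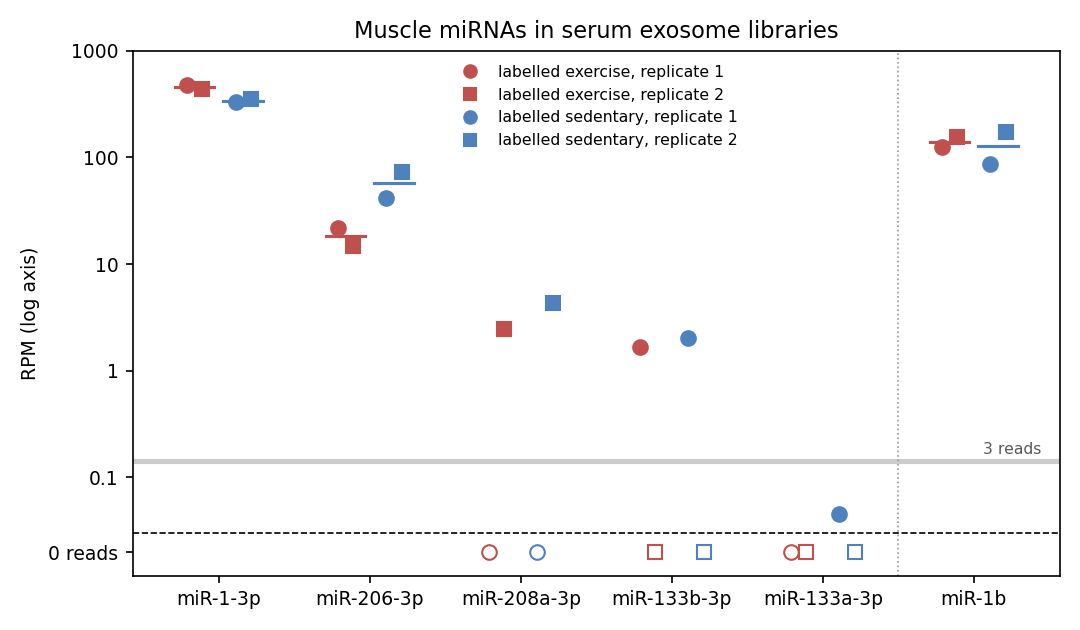
Level of each muscle miRNA and of miR-1b (right of the dotted line) in RPM on a log axis, with 1 point per library, colour for the treatment label, shape for the replicate number and a bar for the mean of 2 libraries where both are above 0. The grey line marks 3 reads, and open symbols below the dashed break are libraries with 0 reads, which make up 2 of 4 for miR-208a-3p and miR-133b-3p and 3 of 4 for miR-133a-3p.

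The question put to these data was whether the muscle miRNAs of serum Exos differ between the training and the sedentary label. A miRNA was called where limma gave it an adjusted p under 0.05 and a log2 fold change beyond 1 in size, and 0 of the 4 members tested met this. Over all 178 miRNAs tested, 14 were called, or 7.87%, with 9 higher (5.06%) and 5 lower (2.81%) under the exercise label. limma voom on the derived reads also called 0 members (6.74% of all). At an unadjusted p under 0.05, 2 members passed, miR-1-3p and miR-206-3p, against 30.3% of all miRNAs tested. The groups did not overlap for the same 2 members, against 52.2% of all miRNAs tested. Of these members 1 was higher under the exercise label, beside 32% of all miRNAs, and 1 lower, beside 20.2%. The median log2 fold change was -0.20 over the 4 members and 0.21 over all 178 miRNAs. Fewer vesicles from muscle and less of a miRNA per vesicle cannot be told apart in such values.

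miR-1-3p stood at 473 and 435 RPM in the Exe libraries and at 327 and 355 RPM in the Sed libraries. Both exercise values lay above both sedentary values. The means were 454 ± 27.1 RPM and 341 ± 19.5 RPM (SD, n = 2 each), 1.33-fold higher under the exercise label. The log2 fold change was 0.41 (SE 0.14, 95% interval 0.06 to 0.76, adjusted p = 0.13 by limma), so miR-1-3p was not called. The replicate libraries lay close together, with ratios of 1.09 (95% counting interval 1.06 to 1.12) under the exercise label and 1.08 (1.05 to 1.12) under the sedentary label.

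miR-206-3p moved the other way. It stood at 21.9 and 14.8 RPM in the Exe libraries and at 41.6 and 72.9 RPM in the Sed libraries. Both exercise values lay below both sedentary values. The means were 18.4 ± 5.0 RPM and 57.3 ± 22.1 RPM (SD, n = 2 each), 3.12-fold higher under the sedentary label, the label of the libraries whose names begin with E and which are likely to be those of trained rats. Its replicates were further apart than those of miR-1-3p, with ratios of 1.48 (1.28 to 1.71) and 1.75 (1.61 to 1.90). The log2 fold change of -1.56 (SE 0.41, 95% interval -2.56 to -0.56) passed the fold threshold but not the adjusted p of limma (0.074). It did pass with median-of-ratios scaling (adjusted p = 0.043, with 7.87% of all miRNAs called) and with a mean of at least 10 RPM (adjusted p = 0.023, with 22% called). Over the 12 alternatives without a replicate block its adjusted p ran from 0.023 to 0.46, and its log2 fold change from -1.96 to -1.16.

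For miR-133b-3p and miR-208a-3p the libraries within a label differed more than the labels did. Their log2 fold changes were -0.09 (SE 0.80, adjusted p = 0.93 by limma) and -0.31 (SE 1.06, adjusted p = 0.89), and both changed sign when single libraries were left out. miR-133a-3p was above 0 in 1 library and was therefore not tested.

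**Figure D2:**
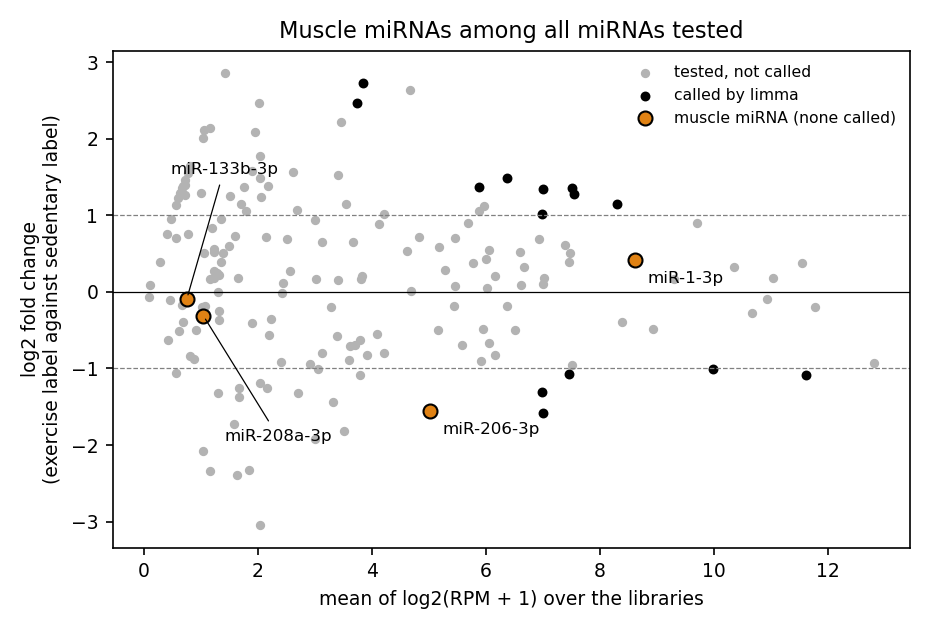
Each point is 1 of the 178 miRNAs tested, placed by its mean of log2(RPM + 1) over the 4 libraries and its log2 fold change between the treatment labels, with dashed lines at the fold threshold. The 4 muscle miRNAs tested are in orange, at 0.41 for miR-1-3p, -1.56 for miR-206-3p, -0.09 for miR-133b-3p and -0.31 for miR-208a-3p, and the 14 called miRNAs are in black.

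The balance of miR-206-3p and miR-1-3p, which share a seed, was then read within each library, where no scaling between libraries enters. There were 4.63 and 3.41 reads of miR-206-3p per 100 reads of miR-1-3p in the Exe libraries. In the Sed libraries there were 12.7 and 20.5. The 95% counting intervals were 4.21 to 5.07, 3.04 to 3.81, 11.8 to 13.6 and 19.4 to 21.7, and the groups did not overlap. On the log2 scale the ratio was -4.65 ± 0.31 under the exercise label and -2.63 ± 0.49 under the sedentary label (SD, n = 2 each). The difference of -2.02 made the ratio 4.07-fold lower under the exercise label, and 4.07-fold higher with exercise if, as is likely, the letters of the library names hold. With 2 libraries against 2, the two-sided exact permutation test gave p = 0.333, the smallest it allows.

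The shift in this balance was about as large when reads of miR-1b were added to those of miR-1-3p, a choice made after the values were seen. The ratio was then 3.66 and 2.52 reads of miR-206-3p per 100 in the Exe libraries and 10.1 and 13.8 in the Sed libraries, 3.89-fold lower under the exercise label. The exact permutation test again gave p = 0.333. As a share of the reads of all 5 members, miR-206-3p made up 4.41% and 3.28% under the exercise label and 11.2% and 16.9% under the sedentary label. miR-1-3p made up 95.3% and 96.2% against 88.2% and 82.1%.

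**Figure D3:**
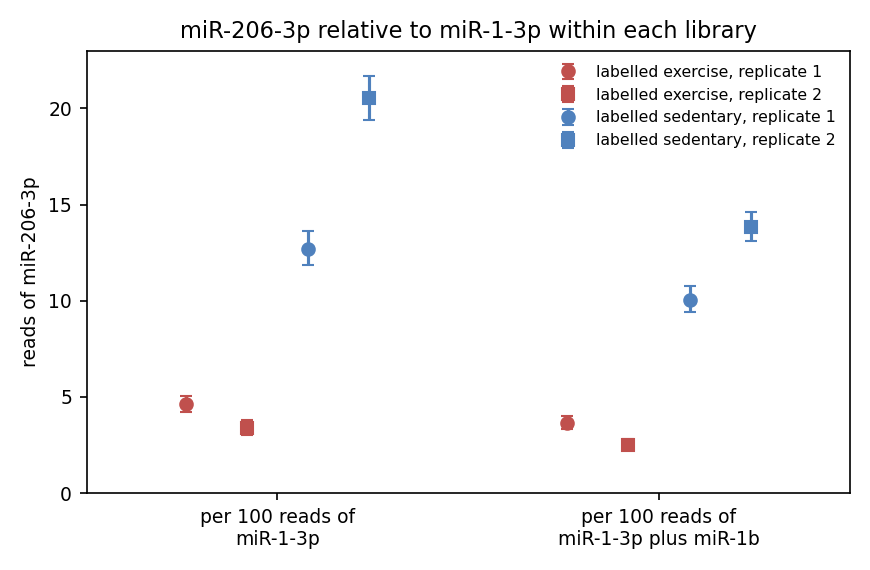
Reads of miR-206-3p per 100 reads of miR-1-3p (left) and per 100 reads of miR-1-3p plus miR-1b (right) in each of the 4 libraries, with 95% counting intervals. On the left the Exe libraries sit at 4.63 and 3.41 and the Sed libraries at 12.7 and 20.5.

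miR-1b behaved less evenly than miR-1-3p, from which it differs by 1 base. It stood at 125 and 154 RPM in the Exe libraries and at 85.8 and 172 RPM in the Sed libraries, so that the sedentary libraries lay on either side of both exercise libraries. The sedentary replicates differed 2.00-fold (95% counting interval 1.89 to 2.11). There were 26.3 and 35.4 reads of miR-1b per 100 reads of miR-1-3p under the exercise label and 26.2 and 48.3 under the sedentary label, so that the labels overlapped (two-sided exact permutation p = 1, in a design whose smallest p is 0.333). The log2 fold change of miR-1b was 0.19 (SE 0.35, adjusted p = 0.77 by limma). That of miR-1-3p and miR-1b taken as 1 value was 0.35 (SE 0.17, adjusted p = 0.24).

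The order of the members in each library was miR-1-3p, then miR-206-3p, then the rest, and miR-1b lay between the first pair in all 4 libraries. miR-133b-3p and miR-208a-3p exchanged places with the replicate number. The sum of the 5 members was 497 and 452 RPM under the exercise label and 371 and 432 RPM under the sedentary label. As a share of the listed miRNA reads this was 1.57% and 1.54% against 1.08% and 1.10%. That share depends also on the listed reads, which were 693085 and 649210 against 754341 and 814439. With miR-1b added, the sum was 621 and 606 RPM against 457 and 604 RPM, and the share 1.97% and 2.07% against 1.33% and 1.54%.

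Scaling moved the size of these values but not the direction of miR-1-3p or miR-206-3p. Scaling to the sum of the listed miRNAs raised the median log2 fold change of all miRNAs from 0.21 to 0.44, and with median-of-ratios scaling it was 0.18. The log2 fold change of miR-1-3p was 0.68 with the first (adjusted p = 0.018 by limma, which 15.2% of all miRNAs passed at 0.05, under the fold threshold) and 0.31 with the second (adjusted p = 0.12). Over its 12 alternatives without a replicate block, the adjusted p of miR-1-3p ran from 0.018 to 0.46. Relative to the median of all miRNAs, miR-1-3p stood at 0.20 as reported, 0.23 with scaling to the listed sum and 0.13 with median-of-ratios scaling. It lay at the median with a pseudocount of 0.1 (a difference of 0.0095) and with limma voom (-0.015), so its place above the median depends on the setting. For miR-206-3p the differences as reported and with the 2 scalings were -1.77, -1.74 and -1.84. The calls over all miRNAs were 9 higher and 5 lower as reported, 13 and 2 with scaling to the listed sum (8.43% called) and 5 and 9 with median-of-ratios scaling (7.87%).

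**Figure D4:**
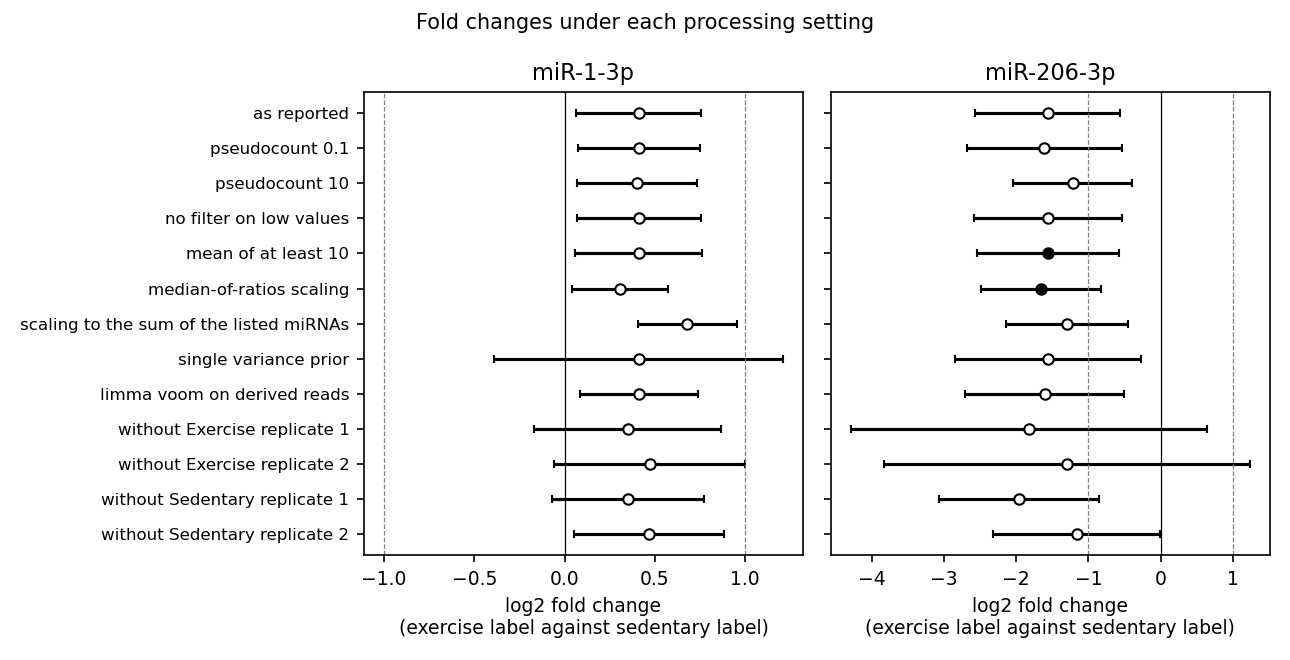
log2 fold change between the treatment labels with its 95% interval for miR-1-3p (left) and miR-206-3p (right) under each processing setting without a replicate block, with filled points where the miRNA was called and dashed lines at the fold threshold. miR-1-3p stays between 0.31 and 0.68 and was not called in any setting drawn, and miR-206-3p stays between -1.96 and -1.16, with 2 settings in which it was called.

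miRNAs with the profile most like that of each member were sought among those with a mean of at least 10 RPM, by the distance between centred log2(RPM + 1) values over the 4 libraries. For miR-1-3p these were miR-30a-3p (distance 0.092), let-7f-5p (0.11) and miR-146b-5p (0.11). let-7f-5p, for instance, stood at 3413 and 3464 RPM under the exercise label and at 2564 and 2710 RPM under the sedentary label. For miR-206-3p they were miR-423-5p (0.52), let-7d-3p (0.59) and miR-151-3p (0.61), all at a greater distance. miR-423-5p stood at 72.9 and 74.1 RPM under the exercise label and at 199 and 247 RPM under the sedentary label. For miR-133b-3p they were miR-101a-3p (0.82), miR-379-5p (0.94) and miR-100-5p (1.18), and for miR-208a-3p miR-145-5p (1.30), miR-184 (1.35) and miR-451-5p (1.35). The profile of miR-133a-3p holds 1 read, so those nearest to it, miR-24-3p (0.18), let-7a-5p (0.23) and miR-126a-3p (0.24), are flat ones.

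Other miRNAs that act in muscle cells but are made in many tissues were taken from a list of 19, of which 16 had a row and 14 were tested. Of these, 1 was called higher under the exercise label and 0 lower, which is close to the 7.87% called over all miRNAs, and the median log2 fold change was 0.53 beside 0.21 over all miRNAs. The one called was miR-26a-5p, which promotes differentiation of muscle cells. It stood at 288 and 301 RPM in the Exe libraries and at 134 and 96.9 RPM in the Sed libraries, with no overlap, and its direction too is likely to turn with the labels. Its log2 fold change was 1.36 (adjusted p = 0.025 by limma), and it was called in 5 of the 12 alternatives without a replicate block, over which its adjusted p ran from 0.0018 to 0.32. With median-of-ratios scaling the adjusted p was 0.052. miR-486, which is abundant in red cells as well as in muscle, stood at 5710 and 4724 RPM under the exercise label and at 8754 and 11162 RPM under the sedentary label. Its log2 fold change of -0.93 (adjusted p = 0.043 by limma) lay under the fold threshold. It was called with median-of-ratios scaling, at -1.03 (adjusted p = 0.016), and over the 12 alternatives its adjusted p ran from 0.0052 to 0.45.

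Marker lists of other sources that serum can hold are given by their sums and calls, to be read beside the 7.87% called over all miRNAs (5.06% higher and 2.81% lower), and their part in the muscle results was not tested. Their directions rest on the same labels and are likely to turn with them. With 3 to 6 miRNAs tested a list, 1 call says nothing about a list. The 3 smooth muscle miRNAs with a row, led by miR-143-3p, summed to 1468 to 1503 RPM under the exercise label and 1783 to 1838 RPM under the sedentary label, with a median log2 fold change of -0.70 and 0 called. The 4 liver miRNAs summed to 931 to 933 RPM against 1535 to 1689 RPM, most of it miR-122-5p, with a median of 0.09 over the 3 tested. Of these 3, 2 had a log2 fold change above 0. The hepatocyte miRNA miR-122-5p went the other way and was the 1 called, at -1.003 (adjusted p = 0.017 by limma). The 5 red cell miRNAs summed to 4806 to 5774 RPM against 8768 to 11312 RPM, nearly all of it miR-486, with a median of 0.37 over the 3 tested and 0 called. Of the 5, 3 were at 0 in at least 1 library: miR-144-3p, miR-144-5p and miR-16-5p, which the naming rule does not cover and which are named for this count after their values were seen. miR-451-5p, also outside that rule, stood at 54.0 and 70.4 RPM under the exercise label and at 14.7 and 148 RPM under the sedentary label. Its log2 fold change was 0.37 (SE 0.99, adjusted p = 0.87 by limma). Of the 3 tested, 2 had a log2 fold change above 0 and miR-486 had one below 0.

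The 6 white cell miRNAs summed to 191 to 200 RPM under the exercise label and 84.0 to 107 RPM under the sedentary label, with a median of 1.16, and 1 was called, the lymphocyte miRNA miR-150-5p, at 1.49 (adjusted p = 0.025 by limma). The 5 miRNAs of endothelium and platelets summed to 195 to 214 RPM against 139 to 144 RPM, with a median of 0.51 and 0 called, led by miR-191a-5p. The 4 neuroendocrine miRNAs summed to 145 to 150 RPM against 227 to 320 RPM, most of it miR-375-3p, with a median of 0.31. Of the 4, 3 had a log2 fold change above 0. The islet miRNA miR-375-3p went the other way and was the 1 called, at -1.07 (adjusted p = 0.025 by limma). Over the 12 alternatives without a replicate block, miR-122-5p was called in 5 (adjusted p from 0.0015 to 0.17), miR-150-5p in 6 (0.0029 to 0.31) and miR-375-3p in 5 (0.0034 to 0.32).

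**Figure D5:**
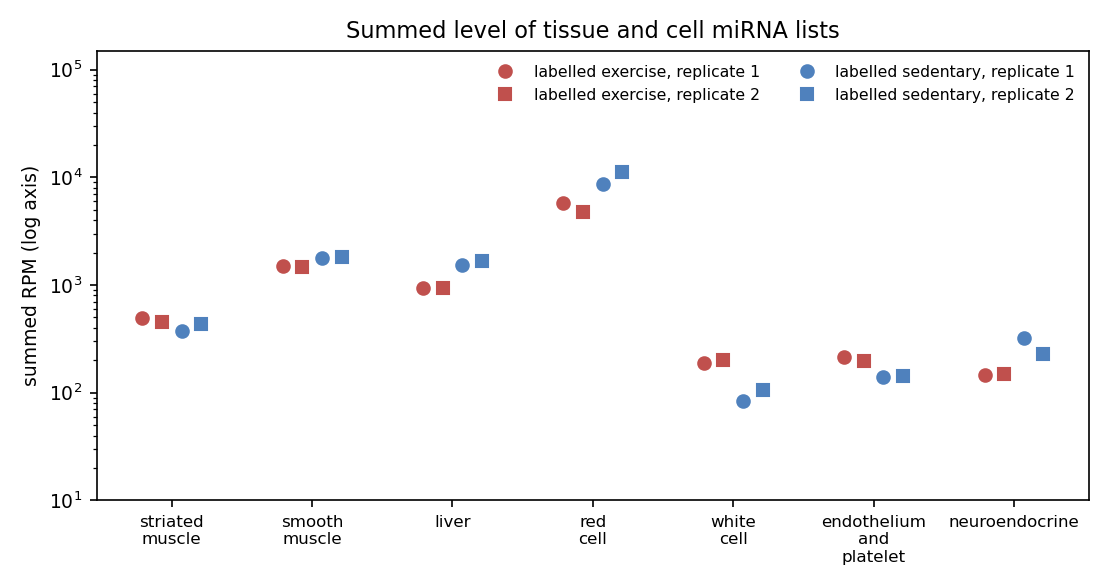
Summed RPM on a log axis of the listed miRNAs of each tissue or cell list in each of the 4 libraries, with colour for the treatment label and shape for the replicate number. The striated muscle sum lies at 371 to 497 RPM in all libraries, and the red cell sum at 4806 to 5774 RPM under the exercise label and 8768 to 11312 RPM under the sedentary label.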

How the data were processed

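Serum Exos of rats were measured in 4 small RNA libraries. The authors trimmed reads with cutadapt, aligned them to mRatBN7.2 (with Bowtie per the labels, Bowtie2 per the methods), counted them on miRBase miRNAs with featureCounts and deposited 1 value per miRNA and library. These deposited values, which the authors name TPM, are RPM without length scaling. Which reads the library total counts was not established. The lowest non-zero value in a library was read as 1 read (100% of non-zero values then whole, tolerance 0.01), for depth, floors and counting intervals. The authors' comparison used a count model on counts not used here. limma 3.58.1 (R 4.3.3, trended prior) was fitted to log2(RPM + 1) of the 178 miRNAs above 0 in at least 2 libraries. p-values were adjusted by Benjamini-Hochberg, with thresholds of 0.05 and a log2 fold change of 1 in size. The pseudocount makes the changes of low miRNAs look smaller. The fit was tested on simulated data. Shares and ratios were made with Python 3.11.15 and scipy 1.17.1.

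Both replicate pairs differed by more than sampling noise, so no library was taken for a second deposit of another, and each was counted singly. This does not show that they came from separate rats or serum. Alternatives were a pseudocount of 0.1 or 10, no filter, a filter at a mean of 10 RPM, median-of-ratios scaling, scaling to the sum of the listed miRNAs, a single variance prior, a replicate block, other thresholds, limma voom and the removal of each library. A crossed block and the sums with miR-1b were added after seeing the data. The members and the marker lists (other myogenic, smooth muscle, liver, red cell, white cell, endothelium and platelet, neuroendocrine) were chosen with earlier results of these data known. Named are every member, the nearest sequences, the 3 miRNAs nearest in profile, and of each list the called and the most abundant miRNA. miR-3571 and the red cell miRNAs other than miR-486 were named outside this rule.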

Additional observations from a re-analysis of the deposited data

How the results depend on the processing

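miR-1-3p kept its direction and stayed uncalled in 15 of 15 alternatives, including its sum with miR-1b. Leaving out 1 library gave a log2 fold change of 0.35 to 0.47. miR-206-3p kept its direction in 14 of 14. It was called with a mean of at least 10 (-1.56), with median-of-ratios scaling (-1.66), with the replicate block (-1.56, adjusted p = 0.0042 by limma) and with the crossed block (-1.56), so the count of members called rose from 0 to 1 in each. Leaving out 1 library gave -1.96 to -1.16 for it, with 0 members called. The count was also 1 at an unadjusted p with the fold threshold. The log2 ratio of miR-206-3p to miR-1-3p was -2.02 as reported and with the block, -1.97 with a pseudocount, -1.96 with miR-1b in the denominator and -2.37 to -1.68 without 1 library. Over all miRNAs, 14 were called as reported, 3 without a filter, 0 with a single variance prior, 39 (21.9%) at an unadjusted p with the fold threshold and 0 to 11 without 1 library. The 0 came without sedentary replicate 1 and without sedentary replicate 2, and the lone library is then assumed to vary like the other group. The cause was not tested.

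Signs turned for miR-133b-3p without exercise replicate 2 (0.62) and without sedentary replicate 1 (0.71, of a range of -0.89 to 0.71), for miR-208a-3p without exercise replicate 1 (0.58) and without sedentary replicate 2 (0.89, of -1.51 to 0.89), and for miR-1b without sedentary replicate 1 (-0.31, of -0.31 to 0.68). Same-numbered libraries did not deviate together over all miRNAs tested (r = -0.15 over 178 miRNAs), though miR-133b-3p and miR-208a-3p were detected by number. No label says that a number marks a shared rat or day. Whether same-numbered libraries share more than a number was not tested. The block called 18 miRNAs (10.1%), and the crossed block, added after seeing the data, also called 18 (10.1%). The difference between labels in the log2 ratios to miR-133a-3p has no value because it was at 0 in 3 libraries, and its log2 fold change exists without a filter only (-0.03). With 2 libraries a group, no exact test could pass 0.05.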

Other observations

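miR-3571 lies on the other strand of the miR-1 locus: the gene table of GRCr8 lists Mir3571 as overlapping Mir1, and 21 bases in a row of the listed sequences of miR-3571 and miR-1-3p are complementary. Its sequence, with the seed in capitals, is shown for this reason:
miR-3571: tACACACTtctttacattccata
The Exe libraries held 120 and 118 reads of it (5.46 and 5.33 RPM) and the Sed libraries 90 and 9 (4.09 and 0.433 RPM). Both exercise values lay above both sedentary values, as for 32% of all miRNAs tested, and the sedentary replicates were far apart. The log2 fold change was 1.24 (SE 0.99, adjusted p = 0.47 by limma), so a difference beyond the spread was not shown. It was 2.16 without sedentary replicate 1 and 0.33 without sedentary replicate 2. Whether the authors counted reads by strand is not given in the sources used here, so reads of miR-1-3p and of miR-3571 may not be told apart fully.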
